A study of Mus musculus with 12 samples.

Results

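Transcript levels of 10 genes of microbial sensing, Tlr1, Tlr2, Tlr4, Tlr6, Tlr7, Tlr8, Tlr9, Tlr13, Nod2 and the adaptor Myd88, were followed in RNA-seq of mouse eosinophils. The genes were chosen by name as pattern recognition receptors with their common adaptor, and all 10 were found by symbol among the 53801 genes of the count table. The eosinophils came from marrow or blood of Atg5 flox/flox eoCre Il5tg mice, called Atg5-knockout here, and of eoCre Il5tg mice without floxed Atg5, called control, with 3 libraries for each of the 4 groups. All mice, controls included, carried a single allele of the Cre recombinase knocked in at Epx, the eosinophil peroxidase gene, and a transgene that overproduces Il5, so the control cells were eosinophils of hypereosinophilic animals that had lost an Epx allele, and untreated wild-type cells were not part of the comparison. The ages of these animals are not given in the sources used here. Cells were isolated by depletion of unwanted cells with antibodies, among them those against CD8a, CD90.2 and Ly6G, and no antibody against natural killer cells is named.

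Toll-like receptors are membrane proteins that bind conserved microbial molecules. TLR2 pairs with TLR1 or TLR6 at the cell surface and binds bacterial lipopeptides, TLR4 binds lipopolysaccharide, and TLR7, TLR8, TLR9 and TLR13 sit in endosomes, where TLR7 and TLR8 respond to RNA, TLR9 to unmethylated CpG DNA and TLR13 to bacterial ribosomal RNA. NOD2 is a cytosolic receptor for muramyl dipeptide, a fragment of the bacterial cell wall. MYD88 carries the signal of these Toll-like receptors to the IRAK kinases, TRAF6 and NF-κB, whereas NOD2 signals through RIPK2.

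On GRCm38, the build of the count table, 3 of the 10 genes lie on chromosome X. Tlr8 (chrX:167242696-167264329) and Tlr7 (chrX:167304929-167330558) are neighbours on the minus strand, separated by 40599 bases with 0 annotated genes between them, and Tlr13 lies at chrX:106143204-106160493. Tlr1 (chr5:64924679-64933563) and Tlr6 (chr5:64952031-64960097) are neighbours as well, with 18467 bases between them. Tlr9 (chr9:106222598-106226883) and Myd88 (chr9:119335934-119341411) share a chromosome but not a neighbourhood. Tlr2 (chr3:83836272-83841767), Tlr4 (chr4:66827584-66930284) and Nod2 (chr8:88647315-88688474) lie elsewhere. Transcripts of Tlr1 and Tlr6 aligned over 1076 bases at 94.9% identity with an identical run of 229 bases, and reads that fit both places equally well were not counted for either, so part of the RNA of both genes is not in their levels. The same holds for a run of 139 bases that Tlr7 shares with 4933401H06Rik, a noncoding gene on another chromosome. Exons of Myd88 share 290 bases with Acaa1a on the other strand, and reads there were not counted for either gene.

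The 250 bases upstream of the RefSeq start are shown for Tlr6, Tlr13, Myd88 and Tlr2, which were higher in blood than in bone marrow in at least 1 genotype, and for Tlr8 and Tlr9, which were not. Those of Nod2, also higher in blood in both genotypes, and of Tlr1, which was not, were searched for motifs but are not shown. Each sequence is read 5′ to 3′ on the strand of its gene, from the RefSeq table on GRCm38.p6, and capitals mark matches to the motifs named after them. Tlr6 is from chr5:64960049-64960298 (minus strand), Tlr13 from chrX:106143025-106143274 (plus), Myd88 from chr9:119340019-119340268 (minus), Tlr2 from chr3:83841609-83841858 (minus), Tlr8 from chrX:167264330-167264579 (minus) and Tlr9 from chr9:106222348-106222597 (plus).
Tlr6: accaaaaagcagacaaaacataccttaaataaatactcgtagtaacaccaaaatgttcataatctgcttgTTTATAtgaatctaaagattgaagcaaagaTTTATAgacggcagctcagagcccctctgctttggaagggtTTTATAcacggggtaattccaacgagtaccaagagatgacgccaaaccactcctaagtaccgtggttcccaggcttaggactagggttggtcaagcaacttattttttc
Tlr13: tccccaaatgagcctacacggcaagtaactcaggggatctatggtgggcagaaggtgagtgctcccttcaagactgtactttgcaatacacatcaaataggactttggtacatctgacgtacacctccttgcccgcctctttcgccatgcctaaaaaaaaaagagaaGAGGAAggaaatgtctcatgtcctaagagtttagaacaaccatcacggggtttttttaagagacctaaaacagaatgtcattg
Myd88: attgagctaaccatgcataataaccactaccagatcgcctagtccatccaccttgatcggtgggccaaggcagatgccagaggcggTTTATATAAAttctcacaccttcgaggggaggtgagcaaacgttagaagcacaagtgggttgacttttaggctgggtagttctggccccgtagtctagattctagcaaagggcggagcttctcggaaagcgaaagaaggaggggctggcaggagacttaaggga
Tlr2: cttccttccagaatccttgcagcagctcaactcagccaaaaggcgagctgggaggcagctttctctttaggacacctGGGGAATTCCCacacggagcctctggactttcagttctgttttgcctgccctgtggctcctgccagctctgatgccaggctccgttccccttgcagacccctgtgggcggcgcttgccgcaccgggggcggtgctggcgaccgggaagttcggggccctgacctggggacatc
Tlr8: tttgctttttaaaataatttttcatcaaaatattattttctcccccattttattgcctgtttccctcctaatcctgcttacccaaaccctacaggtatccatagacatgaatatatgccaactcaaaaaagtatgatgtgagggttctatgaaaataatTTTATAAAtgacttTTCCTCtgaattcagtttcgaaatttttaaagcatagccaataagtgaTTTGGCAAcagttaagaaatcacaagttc
Tlr9: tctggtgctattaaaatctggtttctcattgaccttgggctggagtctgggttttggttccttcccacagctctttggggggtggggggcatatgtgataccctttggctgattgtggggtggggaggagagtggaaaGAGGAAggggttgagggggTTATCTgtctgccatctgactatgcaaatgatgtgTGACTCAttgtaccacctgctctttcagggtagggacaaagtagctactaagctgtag

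The table held a promoter for 8 of the 10 genes, all but Tlr4 and Tlr7. Motifs were searched on both strands of the same 250 bases in these 8 and in all 32851 promoters of the table, and matches to different motifs did not overlap in the 8. GAGGAA, the core of the site bound by the myeloid factor PU.1, was present upstream of 4 genes (Tlr1, Tlr8, Tlr9 and Tlr13) and of 23.3% of all promoters. TATAAA was present upstream of Myd88, Tlr6 and Tlr8 and of 12.4% of all promoters. The NF-κB motif was present upstream of Tlr2 alone and of 7.25% of all promoters. TGACTCA, the AP-1 motif, was present upstream of Tlr9 alone and of 4.46% of all promoters. The GATA motif AGATAA was also found for Tlr9 alone, and in 9.99% of all promoters. TTGCNNAA, a C/EBP motif, was found upstream of Tlr8 alone and in 9.56% of all promoters. Nod2 had no match to any of these motifs. These matches describe letters and not bound sites, and the start of Myd88 in RefSeq lies 1393 bases from the outermost start in the count table.

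Libraries held between 18885052 and 30270166 counts. Counts of the targeted gene Atg5, summed over the whole gene and not over the floxed part alone, were 33.2 to 36.6 CPM (counts scaled to equal library totals) in Atg5-knockout bone marrow against 45.0 to 49.6 in control bone marrow, and the blood groups overlapped (37.7 to 48.3 against 34.4 to 53.3). Eosinophil markers (10 genes, among them Prg2, Epx, Siglecf and Ccr3, none at 0) made up 8.04 to 10.2% of the counts in bone marrow and 1.80 to 4.05% in blood. The markers did not move together. Prg2 (45200 to 60280 CPM in bone marrow, 7257 to 20390 in blood), Prg3, Epx, Ear1, Ear2, Ear6 and Il5ra were lower in every blood library. Siglecf was higher in every blood library (609 to 844.5 against 390.5 to 510), and Ccr3 and Alox15 overlapped between the tissues. Both blood libraries numbered 1 stood apart. In them 10 B cell markers summed to 0.233% (Atg5-knockout) and 0.114% (control) of counts, against 0.0152 to 0.0394% in the other 4 blood libraries and 0.0373 to 0.0403% in bone marrow, and 10 T cell markers to 0.0287 and 0.0165% against at most 0.00453% in every other library (Cd3e was at 0 in all 6 bone marrow libraries, and the B cell marker Vpreb3 in the control blood library numbered 3). The control blood library numbered 1 also held 14.6% red cell counts. Natural killer cell markers (8 genes) summed to 0.0286 to 0.0583% in blood and at most 0.000768% in bone marrow. Xist had at most 2 counts in any library, and Ddx3y of chromosome Y had at least 742 in each. In bulk RNA, fewer cells of a type and less RNA per cell cannot be told apart.

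Per length, the 10 genes kept much the same order in all 4 groups. Levels between genes are compared as RPKM, which is CPM after TMM scaling divided by the exonic length in kilobases, and levels of a single gene are given as CPM after TMM scaling. Myd88 was the highest, at 46.0 ± 1.8 RPKM (SD, n = 3) in control bone marrow, 41.5 ± 5.6 in Atg5-knockout bone marrow, 78.2 ± 19 in control blood and 78.4 ± 9.4 in Atg5-knockout blood. Tlr13 followed with 12.2 ± 0.70, 14.5 ± 2.2, 25.3 ± 2.6 and 29.9 ± 2.8 in the same order of groups. Its level per length was 41.3 to 59.3% of the sum over the 9 receptors in every library, so an RNA sensor of the endosome was the leading receptor transcript of these eosinophils. Tlr2, Nod2 and Tlr6 came next, with group means of 3.78 to 8.40, 2.66 to 5.73 and 2.45 to 5.52 RPKM. Tlr7 was between 0.98 and 5.21, Tlr4 between 1.77 and 2.42, Tlr9 between 0.90 and 1.56, Tlr8 between 0.98 and 1.40 and Tlr1 between 0.74 and 1.25 RPKM.

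**Figure D1:**
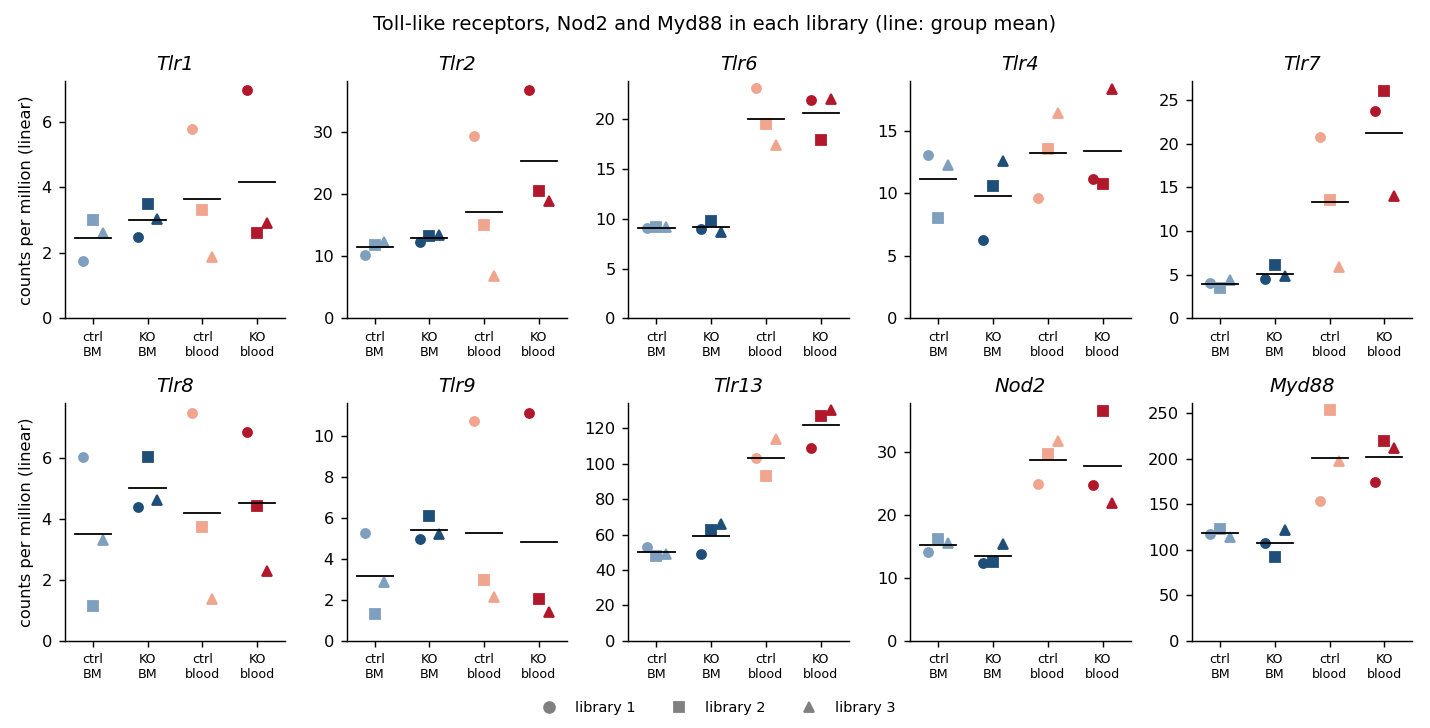
CPM after TMM scaling over 12 libraries (linear axis) of the 10 genes in control and Atg5-knockout (KO) bone marrow (BM) and blood, with 1 point per library and a line at the mean of 3. Tlr6, Tlr13, Nod2 and Myd88 lie higher in every blood library than in every bone marrow library, while Tlr1, Tlr8 and Tlr9 are highest in the blood libraries numbered 1.

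The first question was how the receptor genes differ between eosinophils of the bone marrow, where they mature, and of the blood. Blood cells were separated over a density medium and treated with ice-cold water to lyse red cells, steps not described for marrow cells. Tissue and isolation therefore differed together, and the part of isolation in the differences was not tested. In control mice 5 of the 10 genes (Tlr6, Tlr7, Tlr13, Nod2 and Myd88) were higher in blood and 0 were lower, and in Atg5-knockout mice 6 were higher (the same 5 and Tlr2) and 0 were lower. The threshold was an adjusted p under 0.05 in the quasi-likelihood test of edgeR with Benjamini-Hochberg adjustment over all genes tested. Over all genes tested, 34.2% were called in control mice (16.2% higher in blood, and lower 2466 of 13669) and 47.6% in Atg5-knockout mice (23.5% higher in blood, and lower 3336 of 13853). Levels of blood and bone marrow libraries did not overlap for the same 5 and 6 genes, against 50.1 and 59.9% of all genes tested. The median log2 fold change of the 10 genes was 0.74 in control and 0.96 in Atg5-knockout mice, beside -0.0029 and -0.010 over all genes tested. The labels do not say what same-numbered replicates share, and p-values measure only the spread between these samples.

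Among the surface receptors, Tlr6 was higher in blood by 2.17 times in control and 2.28 times in Atg5-knockout mice. Its levels in control bone marrow were 9.03, 9.15 and 9.17 CPM in the libraries numbered 1, 2 and 3, and in control blood 23.1, 19.5 and 17.4. In Atg5-knockout mice they were 8.96, 9.74 and 8.69 in bone marrow and 21.9, 17.9 and 22.0 in blood. Every blood library was above every bone marrow library. The log2 fold change of Tlr6 was 1.12 ± 0.20 (SE) in control mice (edgeR adjusted p = 0.0031) and 1.19 ± 0.17 in Atg5-knockout mice (adjusted p = 0.00059).

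Tlr2, the partner of Tlr6 and Tlr1 in lipopeptide recognition, was at 10.2, 11.8 and 12.3 CPM in control bone marrow and at 29.3, 15.1 and 6.77 in control blood. The control blood libraries spanned the bone marrow levels, with a log2 fold change of 0.56 ± 0.44 (edgeR adjusted p = 0.35). In Atg5-knockout mice Tlr2 was at 12.3, 13.2 and 13.4 in bone marrow and 36.6, 20.4 and 18.9 in blood, with no overlap and a log2 fold change of 0.98 ± 0.25 (adjusted p = 0.011). The call in Atg5-knockout mice was lost in 3 of 14 alternatives, with library size alone (log2 fold change 0.78, adjusted p = 0.057), in a fit of all 12 libraries (0.97, adjusted p = 0.064) and without the bone marrow library numbered 1 (0.93, adjusted p = 0.053). Without the control blood library numbered 3, the lowest, Tlr2 was called in control mice too (log2 fold change 0.95, adjusted p = 0.041). Whether the tissue difference of Tlr2 itself differs between genotypes was tested by the interaction and did not pass (0.39 ± 0.56, adjusted p = 0.96).

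Tlr1 was low and uneven. It was at 1.76, 3.00 and 2.62 CPM in control bone marrow, 2.49, 3.50 and 3.02 in Atg5-knockout bone marrow, 5.79, 3.30 and 1.87 in control blood and 6.98, 2.62 and 2.91 in Atg5-knockout blood. The tissues overlapped in both genotypes, and the log2 fold changes of 0.55 ± 0.46 (control) and 0.49 ± 0.41 (Atg5-knockout) did not pass. Per length, Tlr6 exceeded its neighbour Tlr1 in every library, by 2.50 to 4.60 times in bone marrow and 2.81 to 8.39 times in blood. Tlr4, the lipopolysaccharide receptor, was at 13.05, 8.05 and 12.3 CPM in control and 6.30, 10.6 and 12.6 in Atg5-knockout bone marrow, and at 9.63, 13.6 and 16.4 in control and 11.2, 10.7 and 18.4 in Atg5-knockout blood. All 4 groups overlapped, and its log2 fold change of blood over bone marrow was 0.24 (95% interval -0.39 to 0.87) in control and 0.46 (-0.23 to 1.16) in Atg5-knockout mice.

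Of the endosomal receptors, Tlr7 showed the largest difference among the 10 genes. It was at 4.04, 3.49 and 4.40 CPM in control bone marrow and 20.7, 13.5 and 5.84 in control blood, a log2 fold change of 1.73 ± 0.42 (edgeR adjusted p = 0.013). In Atg5-knockout mice it was at 4.46, 6.11 and 4.86 in bone marrow and 23.8, 26.0 and 13.997 in blood, a log2 fold change of 2.06 ± 0.27 (adjusted p = 0.00034). The tissues did not overlap in either genotype, but the control blood libraries differed among themselves widely (coefficient of variation 55.7%). In control mice the call was lost without the bone marrow library numbered 1 (adjusted p = 0.054) or 2 (0.058), with log2 fold changes of 1.73 and 1.64.

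Tlr13 combined a high level with a small spread. It was at 53.2, 47.9 and 48.7 CPM in control bone marrow and 103, 93.0 and 114 in control blood, and at 48.9, 62.5 and 65.9 in Atg5-knockout bone marrow and 109, 127 and 130.2 in Atg5-knockout blood. Each blood library was above all 6 bone marrow libraries. The log2 fold change was 1.04 ± 0.15 in control mice (edgeR adjusted p = 0.0013) and 1.06 ± 0.15 in Atg5-knockout mice (adjusted p = 0.00048). Tlr6, Tlr13 and Nod2 kept their calls in all 14 alternatives in both genotypes.

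Tlr8, the neighbour of Tlr7, behaved otherwise. Its levels were 6.05, 1.14 and 3.31 CPM in control and 4.39, 6.05 and 4.64 in Atg5-knockout bone marrow, and 7.50, 3.74 and 1.37 in control and 6.85, 4.42 and 2.30 in Atg5-knockout blood. All 4 groups overlapped, with log2 fold changes of blood over bone marrow of 0.24 ± 0.68 and -0.13 ± 0.38. In Atg5-knockout bone marrow Tlr7 and Tlr8 were near equal per length (Tlr7 over Tlr8 0.888 to 0.920), and in Atg5-knockout blood Tlr7 exceeded Tlr8 by 3.05 to 5.35 times. In control mice the same ratio was 0.587 to 2.69 in bone marrow and 2.43 to 3.73 in blood, ranges that overlap. The bone marrow library with the ratio of 2.69 was the control numbered 2, which held 30 counts of Tlr8 and 34 of Tlr9 against 100 to 199 and 87 to 172 in the other 2 control bone marrow libraries. Its share of B cell markers was 0.0389% and of dendritic cell markers 0.0124% of counts, the latter the highest of the 12 libraries.

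Tlr9, the receptor for CpG DNA, was the most variable of the 10 genes within both blood groups. It was at 5.23, 1.29 and 2.88 CPM in control bone marrow, 4.97, 6.08 and 5.19 in Atg5-knockout bone marrow, 10.7, 2.95 and 2.11 in control blood and 11.1, 2.03 and 1.38 in Atg5-knockout blood. The coefficient of variation reached 112% in Atg5-knockout blood and 90.3% in control blood. With all libraries the log2 fold change of blood over bone marrow was 0.72 ± 0.67 in control and -0.14 ± 0.66 in Atg5-knockout mice, and neither passed.

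Nod2 and Myd88, both cytosolic, were higher in blood. Nod2 was at 14.02, 16.1 and 15.6 CPM in control bone marrow and 24.9, 29.6 and 31.7 in control blood, and at 12.3, 12.4 and 15.4 in Atg5-knockout bone marrow and 24.7, 36.5 and 21.9 in Atg5-knockout blood. Its log2 fold change was 0.90 ± 0.18 in control (edgeR adjusted p = 0.0052) and 1.07 ± 0.22 in Atg5-knockout mice (adjusted p = 0.0036). Myd88 was at 118, 123 and 114 in control bone marrow and 154, 253 and 197 in control blood, and at 107, 92.3 and 121 in Atg5-knockout bone marrow and 175, 219.8 and 211 in Atg5-knockout blood. No blood library of either gene reached down to the bone marrow levels. The log2 fold change of Myd88 was 0.76 ± 0.20 in control (adjusted p = 0.018) and 0.93 ± 0.15 in Atg5-knockout mice (adjusted p = 0.00093). In control mice its call was lost with library size alone (log2 fold change 0.45, adjusted p = 0.12) and without any 1 of the bone marrow libraries (log2 fold change 0.72 to 0.78, adjusted p 0.064 to 0.090), whereas in Atg5-knockout mice it was kept in all 14 alternatives.

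**Figure D2:**
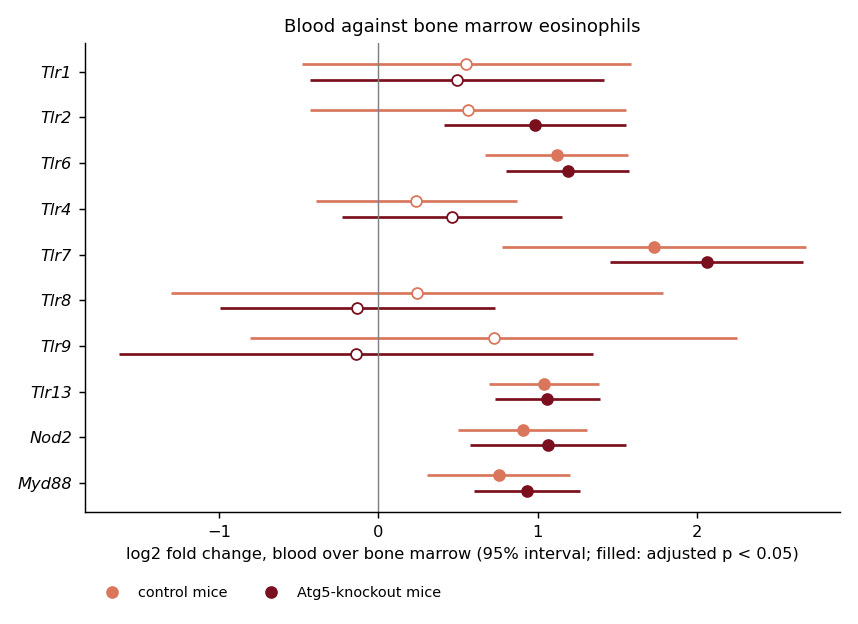
Log2 fold changes of blood over bone marrow with 95% intervals from edgeR in control and Atg5-knockout mice (3 libraries per group), filled where the adjusted p was under 0.05. Tlr6, Tlr7, Tlr13, Nod2 and Myd88 are filled in both genotypes, at 0.76 to 2.06, and the intervals of Tlr8 and Tlr9 are the widest in control mice.

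The uneven blood levels of Tlr1, Tlr2, Tlr8 and Tlr9 followed the libraries. In each of these 4 genes the library numbered 1 was the highest of its blood group in both genotypes, and these are the libraries with the high shares of B and T cell markers. Neutrophil markers (11 genes, none at 0) were highest there too, at 2.13, 1.33 and 1.19% of counts in Atg5-knockout and 1.68, 1.63 and 1.28% in control blood, and at 2.23 to 3.18% in bone marrow. Of the 11, 7 were highest in library 1 of both blood groups and Retnlg, Ngp, Elane and Mpo were not. Taken by genotype, library 1 was highest for 10 of the 11 in Atg5-knockout and for 8 in control blood. In control blood the abundant Retnlg was at 4247, 7033 and 6318 CPM of the library total and Ngp at 4317, 3384 and 5228, whereas S100a8 was at 2123, 1616 and 181. In Atg5-knockout blood Retnlg was at 6537, 5778 and 6333, Ngp at 2996, 2836 and 2769 and S100a8 at 3093, 1259 and 820. In the libraries numbered 1 the B cell marker Cd79a was at 282 (Atg5-knockout) and 141.5 (control) CPM of the library total, against 4.37 to 10.8 in the other 4 blood libraries. The part of these cell types in the levels of the receptors was not tested. Without the blood library numbered 1, Tlr9 was lower in blood than in bone marrow in Atg5-knockout mice, with a log2 fold change of -1.65 (edgeR adjusted p = 0.0011), while in control mice it was -0.32 (adjusted p = 0.64). Tlr1 moved to -0.11 in Atg5-knockout and 0.069 in control mice, Tlr8 to -0.56 and -0.46, and Tlr2 to 0.61 (adjusted p = 0.0071) and -0.065. Tlr6, Tlr7, Tlr13, Nod2 and Myd88 stayed called without these libraries, at 1.14, 1.98, 1.13, 1.14 and 1.02 in Atg5-knockout and 1.01, 1.28, 1.04, 1.001 and 0.92 in control mice. The share of monocyte and macrophage markers (12 genes, none at 0) was 0.306 to 0.360% in all 12 libraries.

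**Figure D3:**
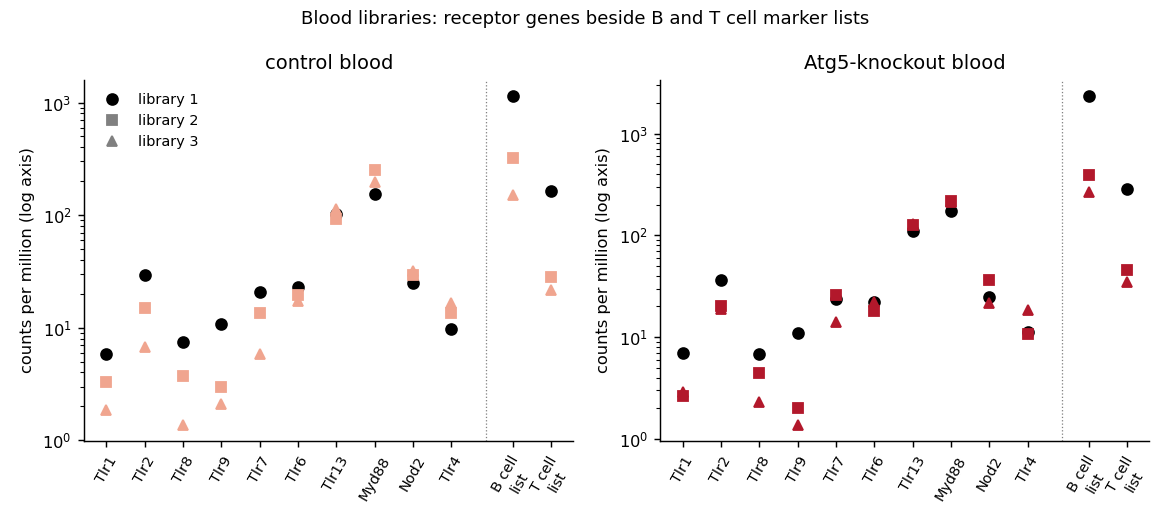
CPM (log axis) of the 10 genes in control and Atg5-knockout blood libraries, beside the summed counts of 10 B cell and 10 T cell markers in CPM of the library total, with library 1 in black. Library 1 is highest for Tlr1, Tlr2, Tlr8, Tlr9 and both marker lists in both genotypes, and not for Tlr13, Myd88, Nod2 or Tlr4 in either.

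The second question was whether loss of Atg5 shifted the receptor genes within a tissue. Of the 10 genes, 0 were called in bone marrow, where 0.348% of all genes tested were called, and 0 in blood, where 0.0371% were called. With the replicate number as a block, 10 genes in place of 5 were called in blood over all genes tested, and still 0 of the 10 receptor and adaptor genes. None of them had an unadjusted p under 0.05 in either tissue, and DESeq2 and limma-voom also called 0 of the 10. Without regard to pairs, levels of knockout and control libraries overlapped for all 10 genes in both tissues under the scaling of each comparison. Over all genes tested, 14.2% did not overlap in bone marrow and 7.48% in blood, and 0 of 10 lies near these shares.

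In bone marrow the intervals were narrowest for Tlr6, Tlr13, Myd88, Nod2 and Tlr2. The log2 fold change of Atg5-knockout over control was -0.027 for Tlr6 (95% interval -0.34 to 0.28), 0.21 for Tlr13 (-0.054 to 0.48), -0.18 for Myd88 (-0.43 to 0.077), -0.22 for Nod2 (-0.53 to 0.092) and 0.16 for Tlr2 (-0.15 to 0.46). All 5 intervals end short of a log2 change of 1. They were wider for Tlr7 (0.34, -0.098 to 0.78), Tlr1 (0.26, -0.32 to 0.84), Tlr4 (-0.21, -0.73 to 0.32) and Tlr8 (0.49, -0.40 to 1.37). With 1 library left out, the estimate of Tlr8 ran from 0.078 to 1.13 and was never called (lowest edgeR adjusted p = 0.12). The lowest p was that of Tlr9, at 0.75 ± 0.36 (edgeR unadjusted p = 0.057, adjusted p = 0.54). Without the control library numbered 1, which held the most Tlr9 of its group, this was 1.33 with an adjusted p of 0.0496.

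In blood the intervals, from the fit without pairing, were wider. They ran from -0.43 to 0.55 for Tlr6, from -0.13 to 0.64 for Tlr13, from -0.47 to 0.52 for Myd88, from -0.58 to 0.51 for Nod2 and from -0.67 to 0.75 for Tlr4, around estimates of 0.062, 0.26, 0.023, -0.037 and 0.043. Those of Tlr7 (0.69, -0.30 to 1.68), Tlr2 (0.59, -0.51 to 1.70), Tlr8 (0.13, -1.27 to 1.53), Tlr1 (0.21, -1.01 to 1.44) and Tlr9 (-0.097, -2.03 to 1.84) each reached beyond a log2 change of 1. Same-numbered blood libraries deviated together, and within these pairs Tlr2, Tlr7 and Tlr13 were higher in the Atg5-knockout library in 3 of 3. How many of all genes were higher in 3 of 3 pairs was not counted. With the replicate number as a block, the log2 fold changes of Tlr2, Tlr7 and Tlr13 were 0.74 (edgeR adjusted p = 0.57), 0.81 (0.50) and 0.26 (0.73). The difference of the genotype effect between tissues, which is also the difference of the tissue effect between genotypes, was called for 0 of the 10 genes and for 0% of all genes tested in edgeR (740 genes at an unadjusted p under 0.05, 11 called by DESeq2 and 0 by limma-voom), and none of the 10 had an unadjusted p under 0.05. Its estimates ran from -0.89 ± 1.06 (Tlr9) to 0.39 ± 0.56 (Tlr2), with -0.40 for Tlr8, -0.089 for Tlr1, -0.0051 for Tlr13, 0.041 for Tlr6, 0.13 for Nod2, 0.15 for Myd88, 0.20 for Tlr4 and 0.30 for Tlr7.

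**Figure D4:**
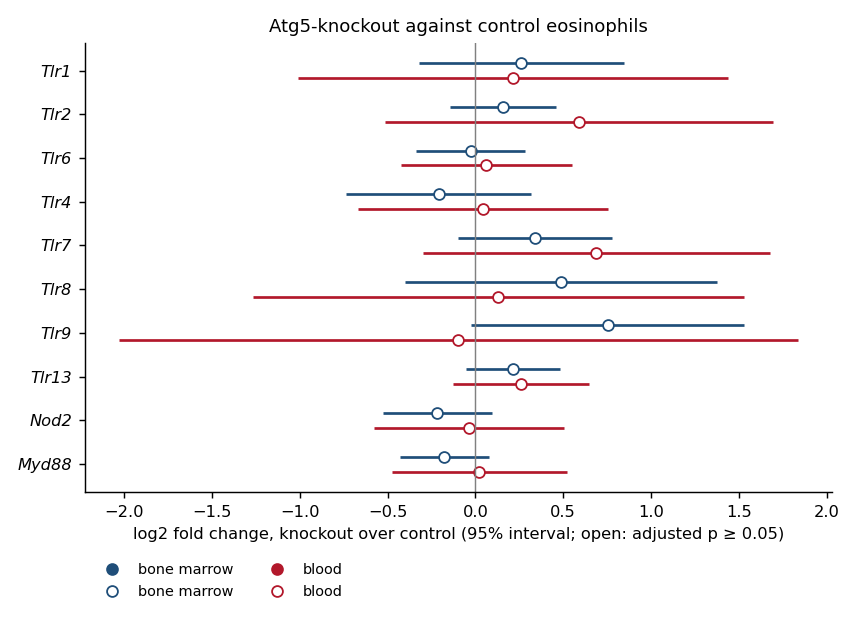
Log2 fold changes of Atg5-knockout over control with 95% intervals from edgeR in bone marrow and in blood (3 libraries per group). All points are open, since 0 of the 10 genes passed in either tissue, and every interval holds 0.

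By mean level over the 4 groups, blood came before bone marrow in both genotypes for Tlr1, Tlr2, Tlr4, Tlr6, Tlr7, Tlr13, Nod2 and Myd88. The step from the lower blood group to the higher bone marrow group was clear of overlap for Tlr6, Tlr13, Nod2 and Myd88. For Tlr2 and Tlr7 the control blood libraries reached the levels of Atg5-knockout bone marrow (6.77 against 12.3 to 13.4, and 5.84 against 4.46 to 6.11). With scaling over all 12 libraries, Atg5-knockout bone marrow lay just above control bone marrow for Tlr2 (12.26 against 12.25 at the nearest libraries) and Tlr7 (4.46 against 4.40), gaps that closed under the scaling of the 2 groups alone. Tlr8 and Tlr9 were highest in Atg5-knockout bone marrow by mean, and neighbouring groups overlapped at every step of their order.

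The other genes of these pathways were taken from 7 lists of 84 genes by role. Between tissues, 36 of 77 tested were called in control mice (31 higher in blood and 5 lower) and 39 of 77 in Atg5-knockout mice (31 higher and 8 lower), again beside 34.2 and 47.6% of all genes. Of the other receptors (5 genes), Nod1, which binds a different fragment of peptidoglycan, rose by 1.15 in control and 0.99 in Atg5-knockout mice on the log2 scale, and Tlr12, a receptor for a parasite protein, fell by 1.53 and 1.14. Co-receptors and chaperones split evenly, with 2 of 11 higher and 2 lower in both genotypes. Cd36, a scavenger receptor that assists TLR2, rose by 4.69 (control) and Cd14, which hands lipopolysaccharide to TLR4, by 3.54 (Atg5-knockout), while Lbp, the lipopolysaccharide-binding protein, fell by 3.20 and 3.45. Of 5 adaptors tested, Ticam2, the bridge from TLR4 to TRIF, fell by 1.16 and 1.34, and Pik3ap1 rose by 1.53 in control and Ticam1 by 0.50 in Atg5-knockout mice.

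Of 21 kinases and ubiquitin ligases, 4 were higher in blood in control and 5 in Atg5-knockout mice and 0 were lower, shares near the 16.2 and 23.5% of all genes that were higher. Among them were Traf6 (1.30 and 1.36), the ligase that MYD88 recruits through the IRAK kinases, and Birc3 (1.20 and 1.596). Of 11 transcription factors, 8 were higher in both, with 0 lower in control and 1 lower in Atg5-knockout mice. The NF-κB subunits Relb (2.08 in control) and Nfkb2 (1.28 and 1.14) and the AP-1 subunit Fos (4.38 in Atg5-knockout) led by p. Inhibitors counted 5 higher of 12 in control, and 4 higher and 1 lower in Atg5-knockout mice, with Nfkbia at 1.73 and 2.16 and Tnfaip3, which removes ubiquitin from TRAF6, at 2.48 and 3.27. The edgeR adjusted p-values of the genes named here were between 3.18e-07 and 0.038.

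Of 18 induced target genes, 12 passed the filter on low counts between tissues, and 9 were higher and 1 lower in control and 9 higher and 2 lower in Atg5-knockout mice, against 16.2 and 23.5% of all genes higher. Some of the 12, such as Cxcl2 and Ptgs2, passed through their blood counts alone, so that the count of higher genes partly follows from the filter. Nfkbiz, an atypical inhibitor of NF-κB, rose by 3.82 in control mice. Cxcl2, a chemokine for neutrophils, had 0 to 3 counts in each of the 6 bone marrow libraries, 286 to 5975 in control blood and 5760 to 12623 in Atg5-knockout blood. Ccl5 rose by 8.64 and 7.74, from 12 to 27 counts in bone marrow libraries to 2731 to 4787 in blood libraries. Natural killer and T cells also express Ccl5, and natural killer cell markers were between 0.0286 and 0.0583% of counts in blood against at most 0.000768% in bone marrow, whose part in the difference was not tested. Between genotypes 0 of 75 pathway genes tested in bone marrow and 0 of 76 in blood were called, with 5 and 2 at an unadjusted p under 0.05 in edgeR. The lowest p was that of Cd36 in bone marrow (log2 fold change 1.35, adjusted p = 0.24) and of Cd14 in blood (1.07, adjusted p = 0.99997). In bone marrow DESeq2 called Cd36. For the interaction, 0 of 77 were called in edgeR (3 at an unadjusted p under 0.05), and the lowest p was that of Tnf (-1.42, adjusted p = 0.93).

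**Figure D5:**
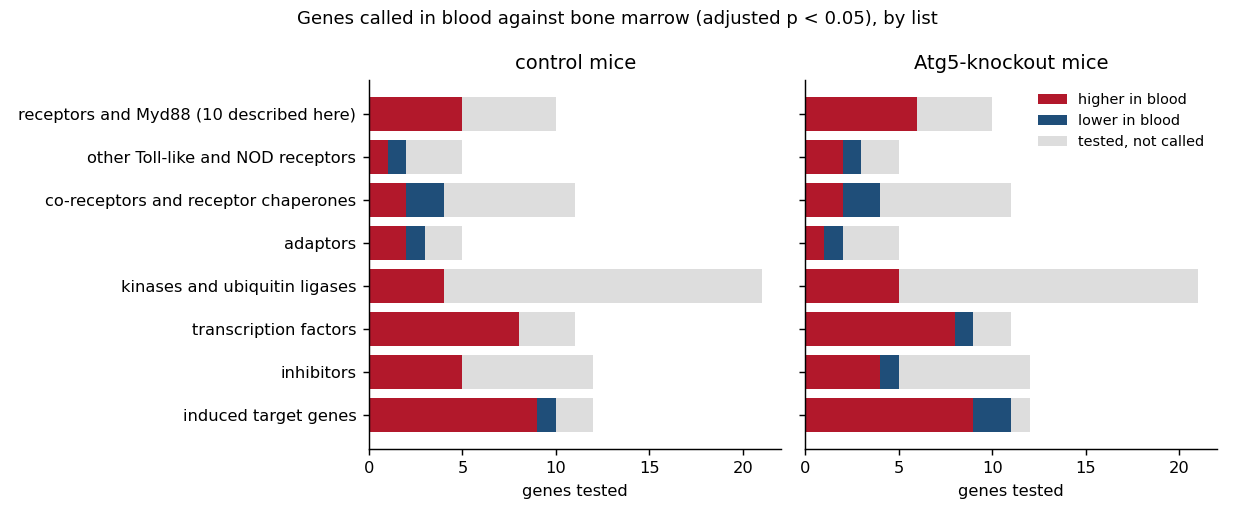
Genes tested per list (bar length) that were higher, lower or not called in blood against bone marrow at an edgeR adjusted p under 0.05, in control and Atg5-knockout mice. Transcription factors (8 higher of 11) and induced target genes (9 higher of 12) were called higher in both genotypes, the latter after a filter that some of them passed through their blood counts alone.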

How the data were processed

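RNA from 12 eosinophil samples was sequenced as 100-base single reads from stranded mRNA libraries. The authors aligned the reads with HISAT2 2.2.1, counted them per gene with featureCounts 2.0.1 and deposited raw counts. The table header names Ensembl release 92 on GRCm38, whereas the methods name an annotation on GRCm39, and it gives no option for strand, for reads with several alignments or for reads over several genes. It does hold the option for paired reads, although the methods describe single reads, so whether a count is a read or a fragment rests on the methods. Symbols were matched through GENCODE for 49674 identifiers.

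The 10 genes and the lists of other genes were chosen with earlier results of these data known. Groups came from the sample titles. Each comparison was fitted on its own libraries (all 12 for the interaction) with edgeR 4.0.16 in R 4.3.3, using TMM factors, its filter on low counts (minimum count 10, total 15), a prior count of 0.125 and quasi-likelihood tests, and every p was adjusted over all genes tested. The fits recovered known changes of well-counted genes in counts simulated with the same spread between replicates for every comparison. The coefficient of variation between replicates estimated by edgeR was 0.146 between genotypes in bone marrow and 0.365 in blood. Between tissues it was 0.286 in control and 0.236 in Atg5-knockout mice. The simulated spread was near that of the bone marrow genotypes, so recovery at the wider spreads was not tested. Genes named between tissues were the 10, and from each list the up to 2 called genes of lowest p. For the genotype comparisons and the interaction, the pathway gene of lowest p was named whether called or not. Cxcl2, Fos and Ptgs2 were also named after their values were seen. Marker genes served as checks, and Xist, Ddx3y, Acaa1a and Cd79a are named as checks only. Promoter sequences were read from RefSeq on GRCm38.p6, and transcripts of the 10 genes were compared with all others by megablast.

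Depth was 18885052 to 30270166 counts per library. Intervals around fold changes are 95% intervals of the fit over samples. Knockout and control blood libraries of the same number deviated together (correlations 0.499, 0.208 and 0.298), which meets the rule for pairing in blood, although the sources used here do not say what they share. Between unlike numbers, the correlations of 2 with 3 were 0.137 and 0.121, and those involving a library numbered 1 were -0.408 to -0.242. Alternatives were DESeq2 1.42.0, limma-voom (limma 3.58.1), other scalings and filters, all 12 libraries, the replicate number as a block and each library left out. Leaving out both blood libraries numbered 1, the block within tissue and the recount of the pathway lists were added after the data were examined.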

Additional observations from a re-analysis of the deposited data

How the results depend on the processing

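Of 780 recomputed values of the 10 genes, 702 kept their direction and their side of the threshold, 9 lost a call, 3 gained one and 66 changed sign, and no value that changed sign was called on either side. The cause was not tested in any case. Between genotypes in bone marrow, the 48 genes called became 192 with DESeq2, 420 without a filter, 12 in a fit of all 12 libraries and 18 to 219 with 1 library left out, with 0 to 1 of the 10 genes (Tlr9). In blood the 5 became 23, 77 and 16 under the same settings and 2 to 6 with 1 library left out. Of the pathway genes, 1 was called in bone marrow with DESeq2 and 1 without a filter (Cd36 in both), and 1 in blood without a filter (Cxcl2). For the interaction, DESeq2 called 11 genes and the fit without a filter 119. Between tissues in control mice, leaving out 1 library gave 2627 to 5926 genes, 3 to 6 of the 10 and 23 to 41 pathway genes. With library size alone the median of all genes moved to -0.31 in control and -0.24 in Atg5-knockout mice, and 25.1 and 34.3% of called genes were higher in blood, in place of 47.3 and 49.4%.

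With the replicate number as a block, 23 genes were called between genotypes in bone marrow and 10 in blood, 4912 and 5917 between tissues, 0 for the interaction, and no call of the 10 genes changed. Same-numbered bone marrow libraries correlated at -0.147, -0.105 and 0.00414, so they did not deviate together, and the labels do not say what they share.

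Signs changed as follows, as log2 fold changes. With library size alone, Tlr6 was 0.0053 between genotypes in bone marrow (0.0019 in a fit of all 12 libraries), Tlr9 0.081 and Nod2 0.053 in blood, Tlr4 -0.074 and Tlr8 -0.065 between tissues in control mice, and the interaction was 0.055 for Tlr1. Between genotypes in blood, Tlr4 was -0.0010 and Myd88 -0.014 without a filter, and -0.027 and -0.048 without both libraries numbered 1. The interaction of Tlr13 was 0.017 with DESeq2, 0.0071 with limma-voom, 0.016 with RLE factors, 0.098 with library size alone, 0.0039 with the block, 0.0056 with the block within tissue and 0.096 without both blood libraries numbered 1. With 1 library left out, ranges in bone marrow were -0.43 to 0.032 for Tlr4 and -0.070 to 0.0024 for Tlr6. In blood they were -0.39 to 0.71 for Tlr1, -0.31 to 0.84 for Tlr8, -0.29 to 0.10 for Nod2, -1.61 to 0.95 for Tlr9, -0.14 to 0.22 for Myd88, -0.26 to 0.23 for Tlr4 and -0.025 to 0.18 for Tlr6. Between tissues they were -0.065 to 0.95 for Tlr2, -0.46 to 0.88 for Tlr8 and -0.32 to 1.30 for Tlr9 in control mice, and -0.11 to 0.74 for Tlr1, -1.65 to 0.30 for Tlr9 and -0.56 to 0.18 for Tlr8 in Atg5-knockout mice. For the interaction they were -0.13 to 0.10 for Tlr13, -0.65 to 0.40 for Tlr1, -0.12 to 0.27 for Nod2, -0.10 to 0.41 for Tlr4, -0.054 to 0.15 for Tlr6, -1.06 to 0.30 for Tlr8, -2.36 to 0.15 for Tlr9, -0.015 to 0.35 for Myd88 and -0.057 to 0.76 for Tlr7. Counts of Tlr1, Tlr8 and Tlr9 were low, with as few as 38, 28 and 27 in a library, and the part of depth in their spread was not tested.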

Other observations

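Some inducible genes of these pathways differed widely among the control blood libraries. Cxcl2 counts in control blood were 2370, 5975 and 286 in the libraries numbered 1, 2 and 3, against 11374, 5760 and 12623 in Atg5-knockout blood. Fos had 1175, 2691 and 413 counts in control and 3296, 2244 and 2643 in Atg5-knockout blood, and Ptgs2, the inducible prostaglandin synthase, 218, 107 and 9 against 454, 157 and 363. The control blood library numbered 3 was the lowest in all 3 genes, and it was also the lowest of its group in Tlr1, Tlr2, Tlr6, Tlr7, Tlr8 and Tlr9. The choice of these 3 genes followed their values, and none of them was called between genotypes in blood by edgeR with its filter on low counts, whereas Cxcl2 was called without that filter. Of the control blood libraries, the one numbered 3 also held the highest share of eosinophil markers (4.05%). Prg2, Prg3, Epx, Ear1, Ear2 and Ear6 were highest there, whereas Siglecf, Ccr3, Il5ra and Alox15 were highest in the control blood library numbered 2. In the library numbered 3, shares of B cell (0.0152%), natural killer cell (0.0286%), dendritic cell (0.0023%) and neutrophil (1.28%) markers were the lowest of that group. Its share of red cell markers (1.42%) was not. The part of these shares in the levels was not tested.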
